A study of Mus musculus with 96 samples.

Results

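The 38 genes described here mark macrophages and other leukocytes: resident macrophage surface and scavenger genes, chemokine and growth factor receptors, Fc receptor and adaptor genes, phagocyte and pan-leukocyte genes, MHC class II genes, the neutrophil alarmins and B cell genes. They were chosen by name, as known markers of these cells, out of the 55376 genes of the count table. The choice was made with earlier results of these data known. All 38 were among the 15629 genes that passed the filter on low counts. RNA came from ventricles of mice in which Bmal1, the activating factor of the circadian clock (listed as Arntl), can be deleted in cardiomyocytes on induction, and the study asked what Bmal1 contributes to the differences between female and male hearts. The genotype label, iCSBmal1 KO, was the same for every animal. Mice had received tamoxifen, which induces the recombination, or vehicle, so there were 4 groups by sex and treatment. Each had 24 libraries, 2 at each of 12 times from ct 18 to ct 62 in steps of 4 h, with ct read as circadian time in hours. The strain, the age and the promoter of the recombinase were not given in the sources used here, and with no tamoxifen group lacking the knockout allele, drug and knockout cannot be told apart. The labels do not say that libraries came from separate animals, so the spread behind each p-value is that of libraries and may be technical.

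The adult heart holds macrophages in every layer, next to cardiomyocytes, vessels and fibroblasts. A long-lived population that carries scavenger receptors such as Lyve1, Folr2 and Timd4 renews itself in the tissue, while Ccr2-bearing cells are replaced from blood monocytes. Macrophages clear debris and dead cells, support conduction and present antigen on MHC class II, and monocytes and neutrophils are released into blood and enter tissues with a daily rhythm. In whole-tissue RNA, fewer cells of a type and less RNA per cell cannot be told apart, so every level given here is a share of all ventricular RNA.

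The promoters of 3 genes are shown because, in their roles, they had the lowest adjusted p among the members that were lower in tamoxifen males and had an entry in the RefSeq promoter table (GRCm38.p6). Cx3cr1 was the fourth chosen, and its window lies wholly in an annotated exon and is not printed. Each is the part of the 250 bases before the RefSeq start that lies outside annotated exons, written 5′ to 3′ on the gene's strand. Capitals mark the letters GAGGAA or their reverse complement, the core recognised by PU.1, the master transcription factor of myeloid cells. The S100a8 stretch is chr3:90668821-90668977 on the plus strand, the Fcer1g stretch chr1:171234366-171234599 on the minus strand and the Itgam stretch chr7:128062390-128062639 on the plus strand.
S100a8: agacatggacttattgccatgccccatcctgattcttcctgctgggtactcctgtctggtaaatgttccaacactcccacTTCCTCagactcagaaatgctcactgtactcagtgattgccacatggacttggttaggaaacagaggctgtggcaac
Fcer1g: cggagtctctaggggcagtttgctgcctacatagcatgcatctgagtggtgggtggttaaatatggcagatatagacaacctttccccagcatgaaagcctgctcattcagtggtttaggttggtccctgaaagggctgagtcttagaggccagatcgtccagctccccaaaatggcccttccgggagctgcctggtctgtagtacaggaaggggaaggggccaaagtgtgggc
Itgam: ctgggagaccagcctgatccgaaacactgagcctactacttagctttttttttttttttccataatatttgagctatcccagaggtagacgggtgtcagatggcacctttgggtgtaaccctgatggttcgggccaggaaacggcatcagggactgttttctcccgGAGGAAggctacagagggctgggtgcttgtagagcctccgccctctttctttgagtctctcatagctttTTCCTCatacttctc
The Itgam promoter held 2 matches, starting 84 and 15 bases before the RefSeq start, and the Fcer1g stretch held 0. The printed S100a8 stretch ends 93 bases before the RefSeq start and held 1 match, which starts 170 bases before it. Of the 38 members 25 had an entry, with 29 promoters in all. On either strand, GAGGAA stood in 14 of these 29 (48.3%), against 7639 of all 32851 promoters of the same length (23.3%). The E-box CACGTG, a letter sequence bound by CLOCK and BMAL1, stood in 0 of the 29 and in 1978 of all (6.02%). These are counts of letters in 250-base windows and show no binding.

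Library totals ran from 8944955 to 20596194 counts. Arntl itself ran from 0.992 to 56.3 CPM (counts scaled to the size of the library) in vehicle females and from 1.26 to 48.3 in vehicle males over the day, and from 2.85 to 28.3 in tamoxifen females and from 1.31 to 31.7 in tamoxifen males. Cardiomyocyte markers (10 genes) summed to between 35030 and 62100 CPM over all libraries. Some libraries stood apart. In 10 vehicle male libraries, genes that the annotation classes as TEC (unverified transcripts) took a share of counts above the highest share elsewhere, 0.112%, and these are called TEC-rich here. In all, 13 libraries held over 20 CPM of Myl7, an atrial gene, and these are called Myl7-rich. They were 7 vehicle female, 3 vehicle male, 1 tamoxifen female and 2 tamoxifen male libraries. Of the 2 libraries labelled tamoxifen female at ct 54, 1 went against its sex label, with 0.272 CPM of Xist, which all other libraries labelled female held at 194.1 CPM or more, and 11.3 CPM of the Y-linked Ddx3y, which all libraries labelled male held at 121.7 CPM or more. Its Xist level was thus that of males and its Ddx3y level lay between those of the sexes. It also held the most Myl7, 724.3 CPM, so fits without the Myl7-rich libraries leave it out too. Title numbers ran in separate blocks for vehicle males, vehicle females and tamoxifen mice, so whatever these numbers record cannot be told apart from the groups.

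Every member was detected in all 96 libraries. Per kilobase of exon, the level was highest for Lyz2, the lysozyme of macrophages and neutrophils, at a mean of 108 CPM per kb over all libraries, followed by the class II invariant chain Cd74 at 51.7 and the class II beta chain H2-Eb1 at 23.2. Within the other roles, the highest were the carbonyl reductase Cbr2 at 15.4 CPM per kb among resident macrophage genes, the signalling adaptor Tyrobp at 11.1, the CSF1 receptor Csf1r at 7.03, the immunoglobulin heavy chain Ighm at 5.68 and S100a9 at 3.33. The B cell surface gene Ms4a1 was lowest, at 0.110. Median counts behind a group's level ran from 7.5 for S100a8 in tamoxifen hearts to 2257 for Lyz2 in vehicle females. Group medians were under 30 counts in every group for S100a8, S100a9, Igkc, Cd79a, Cd79b and Ms4a1.

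With tamoxifen, 12 of the 38 genes were lower in females and 28 were lower in males, at an adjusted p under 0.05 (edgeR, Benjamini-Hochberg over all tested genes). None was higher in either sex, and at an unadjusted p under 0.05 or with DESeq2 the number higher was also 0 in both. Among all tested genes, 12.3% were lower and 15.2% higher in females, 27.5% called in all, and 37.8% were lower and 32.2% higher in males, 70.0% in all. The median log2 change of the members was -0.09 in females and -0.34 in males, beside 0.01 and -0.05 for all tested genes. Both sexes shared 9 lower genes: Lyve1, F13a1, Timd4, Folr2, Cbr2, Cd68, Laptm5, Itgam and Ighg2c. Among all tested genes 6.74% were lower and 9.16% higher in both sexes. In all 38 members the range of the tamoxifen libraries overlapped that of the vehicle libraries of the same sex.

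**Figure D1:**
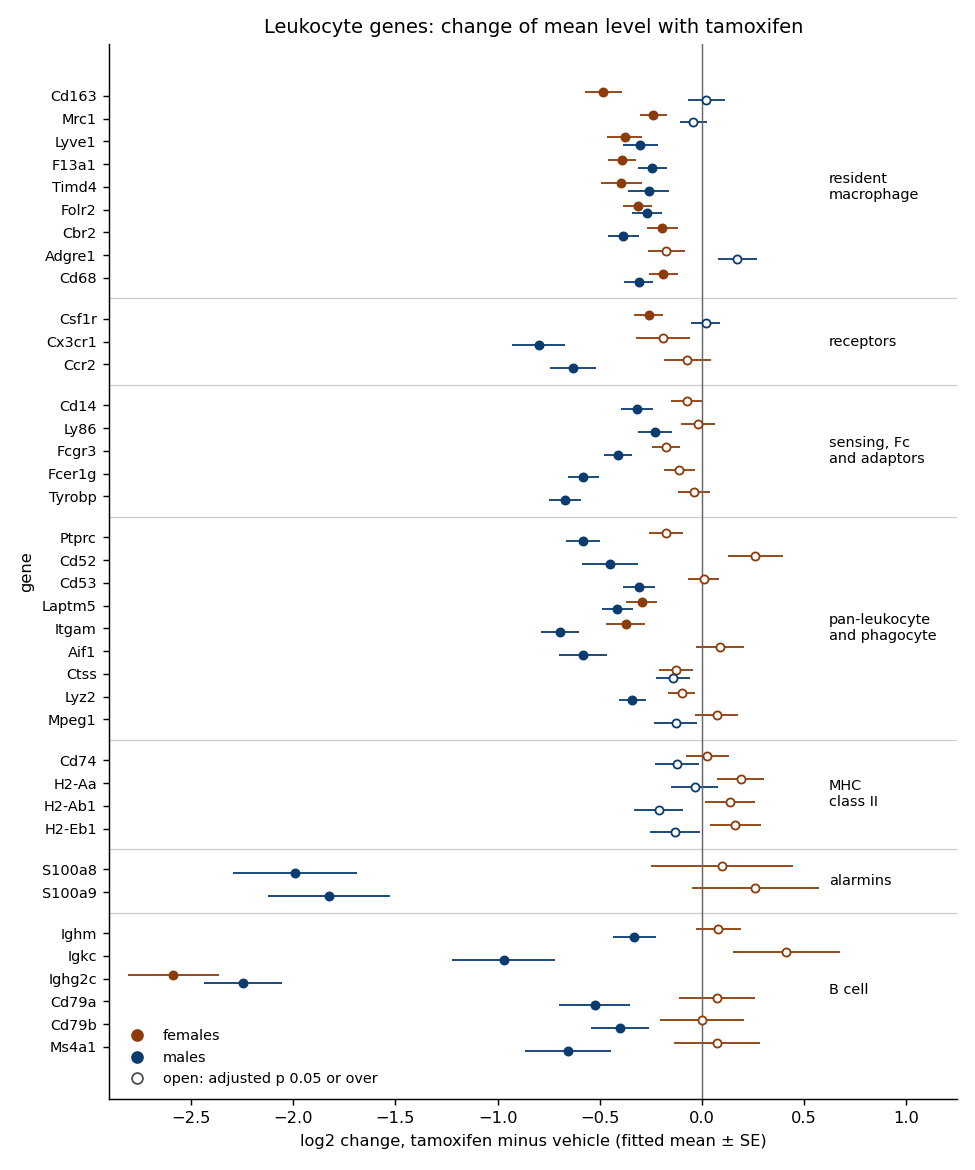
Fitted log2 change of the mean level with tamoxifen (x axis) for each of the 38 genes (y axis, grouped by role), in females (brown) and males (blue), with the standard error as bars; filled points passed an adjusted p of 0.05. Resident macrophage genes lie left of 0 in females, the alarmins lie at 0.10 and 0.26 in females and at -1.99 and -1.83 in males, and Ighg2c is lowest in both.

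In females the genes that fell were mostly those of resident macrophages: 8 of 9, with a median log2 change of -0.32. Cd163, the scavenger receptor for haemoglobin-haptoglobin (a protein-coding gene at chr6:124304656-124330527, GRCm38), ranged from 23.5 to 44.9 CPM in vehicle females (median 30.2) and from 9.08 to 31.5 in tamoxifen females (median 22.95). The tamoxifen libraries were shifted down as a group, with a broad overlap. The fall was 0.48 ± 0.09 on the log2 scale (fitted value ± SE throughout; adjusted p = 1.306e-05), and the mean was lower at 12 of 12 times. F13a1, the A subunit of coagulation factor XIII, fell by 0.39 ± 0.07 (adjusted p = 3.987e-06), also at 12 of 12 times, from a median of 66.9 CPM (42.7 to 95.3) to 49.2 (27.8 to 68.0). Lyve1, the hyaluronan receptor, fell by 0.38 ± 0.08 (adjusted p = 2.821e-04), with medians of 26.7 CPM (16.7 to 51.6) and 21.9 (10.99 to 39.4). These 3 genes kept the direction at every time, and their ranges overlapped.

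Medians of the other resident macrophage genes are given in the order females then males on vehicle, females then males on tamoxifen. They were 48.6, 42.8, 40.4 and 42.6 CPM for Mrc1, 3.86, 3.44, 2.89 and 2.81 for Timd4 and 13.2, 13.4, 10.8 and 11.9 for Folr2. For Cbr2 they were 19.98, 23.6, 17.5 and 18.7, for Adgre1 15.1, 11.6, 14.1 and 13.8 and for Cd68 7.55, 8.59, 6.69 and 7.24. Vehicle females were thus the highest group for Mrc1, Timd4 and Adgre1, and vehicle males for Folr2, Cbr2 and Cd68.

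The phosphatidylserine receptor Timd4 fell by 0.39 ± 0.10 (adjusted p = 0.001205) and the folate receptor Folr2 by 0.32 ± 0.07 (adjusted p = 3.587e-04). Mrc1, the mannose receptor, fell by 0.24 ± 0.07 (adjusted p = 0.00344), and without the 13 Myl7-rich libraries its value was -0.18 (adjusted p = 0.0708). Cbr2 and the lysosomal glycoprotein Cd68 were near the threshold, at -0.20 ± 0.08 (adjusted p = 0.04326) and -0.19 ± 0.07 (adjusted p = 0.03968), and each lost its call in 7 of the 12 fits that left out 1 time. Without the Myl7-rich libraries Cd68 was at -0.165 (adjusted p = 0.1373). Adgre1, which encodes F4/80, was the exception in this role, at -0.17 ± 0.09 (adjusted p = 0.1524). Of the 3 receptor genes Csf1r fell, by 0.26 ± 0.07 (adjusted p = 0.002792), with medians of 42.9 CPM (31.2 to 68.5) and 35.6 (19.7 to 47.5). The lysosomal protein gene Laptm5 fell by 0.30 ± 0.07 (adjusted p = 0.001307) and the integrin gene Itgam, which encodes CD11b, by 0.37 ± 0.09 (adjusted p = 0.001279). In the 7 tamoxifen female libraries with title numbers over 570, set against the same vehicle females, Cd163, Laptm5 and Ighg2c were lower and Cd52 higher, where the 17 libraries with lower numbers gave 13 lower. Of all 15629 tested genes 1389 were lower and 1213 higher in the former, and 1384 lower in the latter. In the libraries numbered over 570 Cd163 was at -0.59 (adjusted p = 0.002968), Laptm5 at -0.34 (adjusted p = 0.04585), and F13a1 at -0.22 (adjusted p = 0.1778).

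The remaining roles held few calls in females. None of the 5 sensing and adaptor genes was called by edgeR, with the Fc receptor Fcgr3 closest at -0.18 ± 0.07 (adjusted p = 0.05071). At an unadjusted p under 0.05 and with DESeq2 it was the 1 gene of this role, and without the 10 TEC-rich libraries of vehicle males, which share the estimate of spread, its adjusted p was 0.04771. None of the 4 MHC class II genes was called by edgeR or DESeq2, the count at an unadjusted p under 0.05 was 0, and their changes lay between 0.03 and 0.19. S100a8 and S100a9 were at 0.10 ± 0.35 (adjusted p = 0.87) and 0.26 ± 0.31 (adjusted p = 0.5758). These errors leave room for changes of either sign. Igkc, the kappa light chain constant region, was at 0.41 ± 0.26 (adjusted p = 0.2497). Its highest tamoxifen female library, at 14.1 CPM, was the one that went against its sex label, the next was at 2.81, and without that library the value was -0.01 (adjusted p = 0.9703).

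In males the fall took in most roles except MHC class II: 6 of 9 resident macrophage genes, 2 of 3 receptors, 5 of 5 sensing and adaptor genes, 7 of 9 phagocyte and pan-leukocyte genes, both alarmins and 6 of 6 B cell genes. Tyrobp, the adaptor of activating myeloid receptors (chr7:30413760-30417585), ranged from 6.08 to 17.98 CPM in vehicle males (median 9.67) and from 4.47 to 8.97 in tamoxifen males (median 5.88). The tamoxifen males lay at the level of the females, and the vehicle males stood above the other 3 groups by their medians. Tyrobp fell by 0.67 ± 0.08 (adjusted p = 4.787e-12), lower at 12 of 12 times. Fcer1g, the common gamma chain of Fc receptors, fell by 0.58 ± 0.08 (adjusted p = 3.306e-10), from a median of 11.2 CPM (6.20 to 21.3) to 7.69 (6.37 to 11.9). Fcgr3 fell by 0.41 ± 0.07 (adjusted p = 2.98e-07), the lipopolysaccharide co-receptor Cd14 by 0.32 ± 0.08 (adjusted p = 2.033e-04) and Ly86, the partner of the receptor RP105, by 0.23 ± 0.08 (adjusted p = 0.01071).

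The chemokine receptor Ccr2, which brings monocytes out of the marrow, fell in males by 0.63 ± 0.11 (adjusted p = 1.008e-06), lower at 12 of 12 times, from a median of 6.995 CPM (4.01 to 14.8) to 4.78 (2.93 to 7.42). Cx3cr1, the fractalkine receptor, fell by 0.80 ± 0.13 (adjusted p = 1.04e-07), from a median of 8.70 CPM (2.28 to 17.6) to 4.43 (1.397 to 9.23). The ranges overlapped, with the upper end of the vehicle libraries standing clear for both. Csf1r was at 0.02 ± 0.07 (adjusted p = 0.8314) in males. Among phagocyte and pan-leukocyte genes, Itgam fell by 0.69 ± 0.09 (adjusted p = 4.045e-10), the leukocyte phosphatase Ptprc (CD45) by 0.58 ± 0.08 (adjusted p = 2.626e-09) and the actin-binding protein gene Aif1 by 0.58 ± 0.12 (adjusted p = 8.904e-06). Laptm5, Cd52, Lyz2 and the tetraspanin Cd53 fell by 0.41, 0.45, 0.34 and 0.31, and the protease Ctss and the pore-forming Mpeg1, at -0.14 and -0.13, did not pass the test. Itgam had medians of 3.01 CPM in vehicle females, 2.15 in tamoxifen females, 4.23 in vehicle males and 2.58 in tamoxifen males.

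In the order females then males on vehicle, females then males on tamoxifen, medians were 13.2, 17.2, 11.95 and 11.7 CPM for Ptprc, 19.6, 21.3, 15.8 and 15.7 for Laptm5 and 133.8, 160.7, 128.6 and 134.0 for Lyz2. Cd53 had medians of 7.69, 8.70, 7.20 and 7.05, Cd52 of 2.84, 3.58, 3.30 and 2.68 and Aif1 of 2.89, 4.23, 2.93 and 2.80. Cd14 had medians of 5.17, 6.48, 4.602 and 5.19, Ly86 of 3.79, 4.41, 3.90 and 4.04 and Fcgr3 of 14.9, 17.9, 12.4 and 13.7. For each of these 9 genes the vehicle males had the highest median of the 4 groups. Fcgr3 has near-copies among the Fc receptor genes, and how reads shared between copies were counted is not given in the sources used here. Of the resident macrophage genes, Cbr2 fell by 0.39 ± 0.08 (adjusted p = 6.227e-06), Cd68 by 0.31 ± 0.07 (adjusted p = 1.023e-04), Lyve1 by 0.30 ± 0.09 (adjusted p = 0.001311), Folr2 by 0.27 ± 0.07, Timd4 by 0.26 ± 0.10 and F13a1 by 0.24 ± 0.07. Cd163 was at 0.02 ± 0.09 (adjusted p = 0.844), Mrc1 at -0.04 ± 0.07 (adjusted p = 0.5727) and Adgre1 at 0.17 ± 0.09 (adjusted p = 0.09385).

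**Figure D2:**
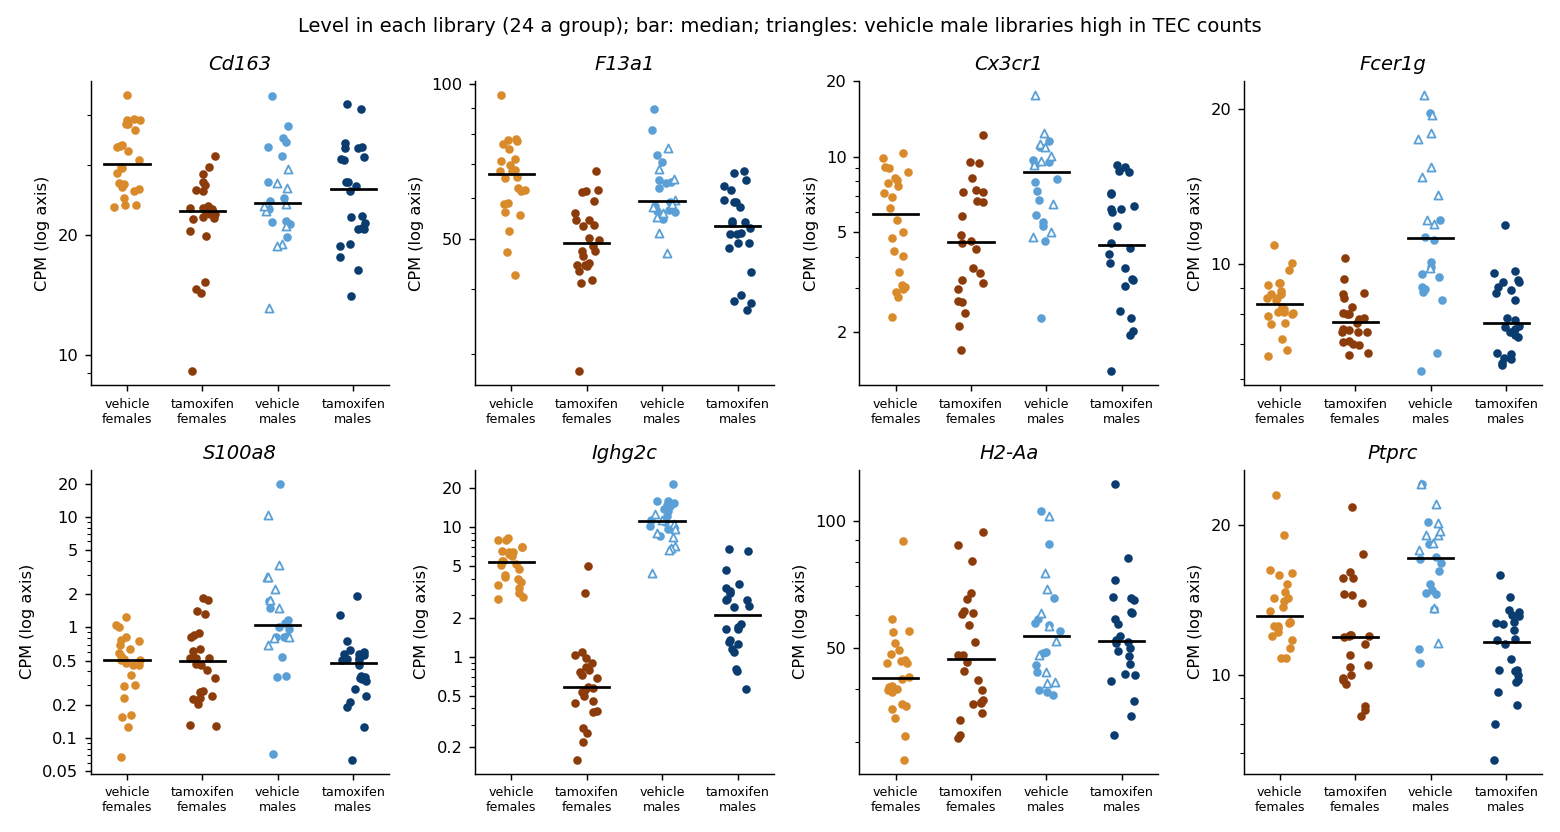
Level of 8 genes in every library (y axis, CPM on a log axis) by group (x axis, 24 libraries each), with the group median as a bar and the 10 TEC-rich libraries of vehicle males as open triangles. Vehicle males stand above the other groups for Fcer1g and Cx3cr1 by their medians, Cd163 is lower in tamoxifen females, and Ighg2c is lowest in tamoxifen females, with a median of 0.582 CPM.

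S100a8 (chr3:90668978-90670035) and S100a9 (chr3:90692632-90695721), which lie on the same chromosome and encode the calcium-binding alarmins that neutrophils carry in bulk, showed the largest male changes after Ighg2c. S100a8 ranged from 0.0711 to 19.98 CPM in vehicle males (median 1.06) and from 0.0633 to 1.91 in tamoxifen males (median 0.481), beside medians of 0.507 in vehicle females and 0.499 in tamoxifen females. Both vehicle male libraries at ct 38 stood far above the rest, at 19.98 and 10.4 CPM, and the next library was at 3.64. S100a8 fell with tamoxifen in males by 1.99 ± 0.30 (adjusted p = 1.843e-08) and S100a9 by 1.83 ± 0.30 (adjusted p = 1.137e-07). Without ct 38 in any group the falls were 1.28 (adjusted p = 5.011e-06) and 1.01 (adjusted p = 1.632e-04), so the sizes rest in part on those libraries and the calls did not. Within each of the 4 groups the levels of S100a8 and S100a9 moved together over the 24 libraries, with Pearson's r of 0.82, 0.95, 0.86 and 0.74 in females then males on vehicle and females then males on tamoxifen. Spearman's rho was 0.80, 0.87, 0.89 and 0.70. Without the 2 libraries farthest from the median of S100a8, r was 0.76, 0.86, 0.82 and 0.65. The lowest adjusted permutation p for r was 3.5e-05, from the smallest raw p the permutations could give, and the highest of the 4 was 9.333e-05 (28 relations in the family). Within the first and the second cycle r lay between 0.67 and 0.97.

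Ighg2c, an immunoglobulin heavy chain constant region made by switched B and plasma cells (chr12:113285325-113288932), changed most of all members. Vehicle females ranged from 2.79 to 8.31 CPM (median 5.34) and tamoxifen females from 0.160 to 4.99 (median 0.582). Vehicle males ranged from 4.40 to 21.7 (median 11.2) and tamoxifen males from 0.567 to 6.73 (median 2.10). In each sex the median of the tamoxifen libraries lay below the lowest vehicle library, and the ranges overlapped at their edges. Ighg2c was 6.01-fold lower with tamoxifen in females (log2 change -2.59 ± 0.22, adjusted p = 6.482e-17) and 4.75-fold lower in males (-2.25 ± 0.19, adjusted p = 2.244e-17), lower at 12 of 12 times in both. Values within the tamoxifen libraries numbered under 570 and over 570 were -2.57 and -2.92 in females and -2.51 and -2.00 in males. The interaction of tamoxifen and sex was -0.34 ± 0.30 (adjusted p = 0.3359). The heavy chain constant regions of the IgG subclasses resemble one another, so reads may be shared among them. How such reads were counted is not given in the sources used here.

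Of the other 5 B cell genes in females, edgeR and DESeq2 called 0 and 0 had an unadjusted p under 0.05. In males Igkc fell by 0.97 ± 0.25 (adjusted p = 4.964e-04), Ms4a1, which encodes CD20, by 0.66 ± 0.21 (adjusted p = 0.004352), the B cell receptor chain Cd79a by 0.52 ± 0.17 (adjusted p = 0.005719), its partner Cd79b by 0.40 ± 0.14 (adjusted p = 0.01038) and Ighm by 0.33 ± 0.11 (adjusted p = 0.004474). Medians of Ighm were 9.26, 12.7, 8.45 and 10.4 CPM and those of Igkc 0.948, 1.94, 0.941 and 1.03, in the order females then males on vehicle, females then males on tamoxifen. Levels of the others were low, with group medians of 0.510 to 0.707 CPM for Ms4a1, 0.558 to 0.968 for Cd79a and 0.769 to 1.17 for Cd79b. MHC class II genes were called in neither sex (0 of 4 in males also with DESeq2 and at an unadjusted p under 0.05). H2-Aa, an alpha chain, had medians of 42.6 CPM (27.3 to 89.6) in vehicle females, 47.2 (30.6 to 94.2) in tamoxifen females, 53.4 (38.8 to 105.5) in vehicle males and 52.2 (31.3 to 122.5) in males on tamoxifen. H2-Aa and its partner chain H2-Ab1 moved together over the libraries of each group, with r of 0.95, 0.98, 0.92 and 0.96 in that order and rho of 0.90, 0.97, 0.89 and 0.93 (adjusted permutation p = 3.5e-05 for each r, from the smallest raw p possible, and 4e-05 for each rho), and without the 2 libraries farthest from the median r was 0.90, 0.98, 0.88 and 0.92. In males the H2-Aa change was -0.04 ± 0.12 and in females 0.19 ± 0.12, so the spread of class II levels between libraries of 1 group was larger than the change between groups.

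Vehicle females and vehicle males differed in 31 of the 38 genes, 28 lower and 3 higher in females, where 68.3% of all tested genes were called, 36.5% lower and 31.8% higher. The 3 higher ones were the resident macrophage genes Adgre1 (0.36 ± 0.09, adjusted p = 4.522e-04), Cd163 (0.28 ± 0.09, adjusted p = 0.005354) and Mrc1 (0.17 ± 0.07, adjusted p = 0.02222), and without the Myl7-rich libraries Mrc1 was at 0.13 (adjusted p = 0.1227) and the lower B cell gene Ms4a1 at -0.41 (adjusted p = 0.1405). The largest differences were those of S100a8 (-1.90 ± 0.30, adjusted p = 3.961e-08), S100a9 (-1.64 ± 0.29, adjusted p = 8.904e-07), Ighg2c (-1.12 ± 0.18, adjusted p = 5.513e-08) and Igkc (-1.03 ± 0.25, adjusted p = 2.367e-04). Without ct 38 the S100a8 and S100a9 differences were -1.09 (adjusted p = 5.115e-05) and -0.81 (adjusted p = 0.001998). All 4 class II genes were lower in vehicle females, H2-Ab1 by 0.48 ± 0.12 (adjusted p = 3.193e-04), and none of the 4 was called in the second 24 h alone, where H2-Ab1 was at -0.29 (adjusted p = 0.05311) and Cd74 at -0.19 (adjusted p = 0.1234). H2-Aa was at -0.33 (adjusted p = 0.05559) without the TEC-rich libraries, and Cd74 at -0.17 (adjusted p = 0.1398) with the correction for exon length. Ccr2 was lower by 0.66 ± 0.11 (adjusted p = 4.338e-07), Tyrobp by 0.54 ± 0.08 (adjusted p = 4.06e-09) and Fcer1g by 0.51 ± 0.08 (adjusted p = 1.147e-08). In tamoxifen hearts 1 of the 38 genes differed by sex, Ighg2c, lower in females by 1.46 ± 0.24 (adjusted p = 2.818e-06), where 7.68% of all tested genes were called, 3.60% lower and 4.08% higher. At an unadjusted p under 0.05 there were 6, Cd163, Folr2, Csf1r and Itgam lower and Cd52 higher beside Ighg2c, and the share of all tested genes at that threshold is not given here. The comparisons of tamoxifen with vehicle in males and of females with males in vehicle hearts share the 24 vehicle male libraries. Vehicle females and vehicle males had separate blocks of title numbers, while tamoxifen females and males shared a block. In vehicle hearts sex and block therefore cannot be told apart.

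The 10 TEC-rich libraries of vehicle males and the length of the genes moved with these male results. Of the 4 highest vehicle male libraries 3 were among those 10 for 13 members from several roles (Cbr2, Cd68, Cx3cr1, Ly86, Fcer1g, Tyrobp, Cd52, Laptm5, Itgam, Aif1, S100a8, S100a9 and Cd79a), 1 or 2 for 22 members, and 0 for Cd163, Csf1r and Ighg2c. The TEC-rich libraries were 10 of the 24 vehicle male libraries, and the same count over all tested genes was not made. Without the 10 libraries, 22 members were lower in tamoxifen males and 0 higher, beside 3036 lower and 3604 higher of all 15629 tested genes. Tyrobp was then at -0.59 (adjusted p = 6.446e-07), Fcer1g at -0.38 (adjusted p = 1.833e-04), Ccr2 at -0.56 (adjusted p = 4.673e-04) and S100a8 at -2.10 (adjusted p = 6.023e-07). The vehicle sex difference then had 22 lower members and 0 higher ones, beside 3696 lower and 3550 higher of all tested genes, with Cd163 at 0.19 (adjusted p = 0.1538), Adgre1 at 0.19 (adjusted p = 0.1532) and Mrc1 at 0.14 (adjusted p = 0.1574).

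By exon length, 22 of the 38 members were in the shortest of 4 equal classes of tested genes (56 to 2365 bases) and 3 in the longest. The median log2 change of all tested genes with tamoxifen in males was -0.19 in the shortest class and 0.04 in the longest, and the median of the members there was -0.39 and -0.58. For females minus males in vehicle hearts the medians of all genes were -0.22 and 0.10, and those of the members -0.42 and -0.29. A correction for exon length, chosen after seeing the data, gave 23 members lower in tamoxifen males, beside 5545 of all 15495 genes in that fit. In vehicle females it gave 22 lower and 3 higher (Cd163, Adgre1 and Lyve1), beside 5108 lower and 4963 higher of all 15495. Mrc1 was then at 0.10 (adjusted p = 0.1473). For tamoxifen in males the corrected values put Tyrobp at -0.46 (adjusted p = 1.803e-08), Ptprc, with 18313 bases of exon, at -0.64 (adjusted p = 2.203e-10) and Cd68 at -0.15 (adjusted p = 0.05692). The part of gene length and of the TEC-rich libraries in the male results was not tested further.

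**Figure D3:**
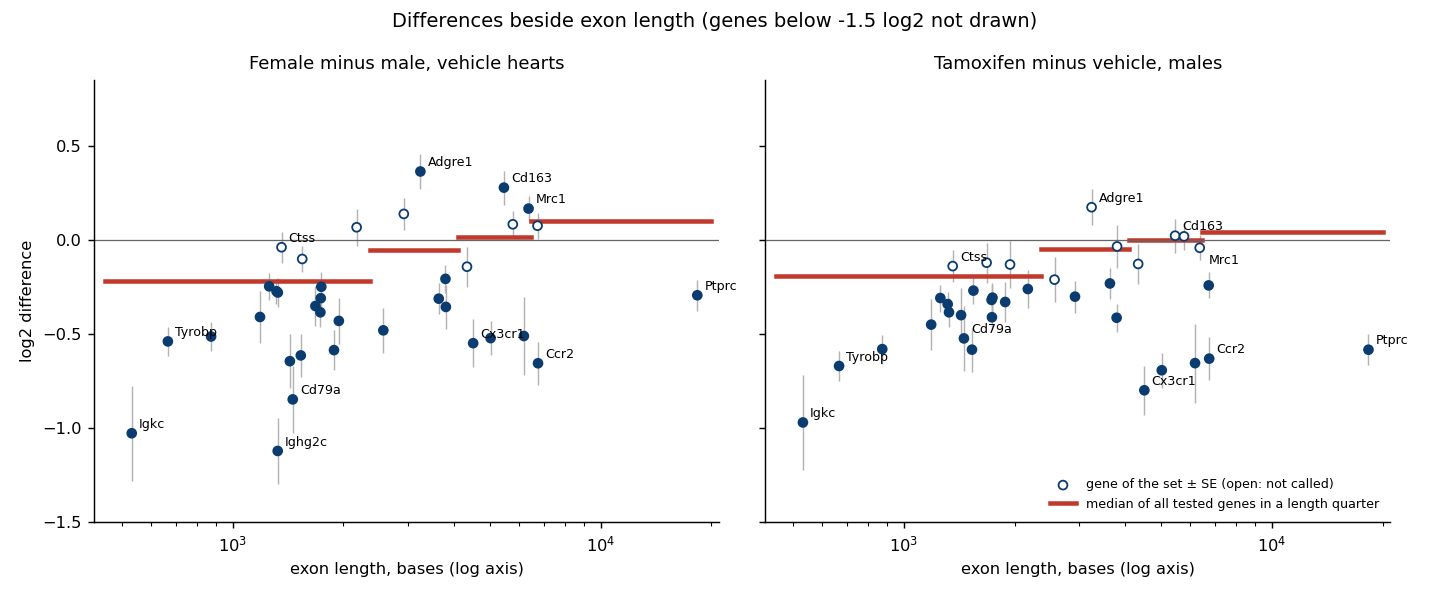
Fitted log2 difference (y axis, with standard errors) against exon length in bases (x axis, log scale) for females minus males in vehicle hearts (left) and tamoxifen minus vehicle in males (right); red lines are the medians of all tested genes in each of 4 length classes and filled points passed an adjusted p of 0.05. In the shortest class the red line lies at -0.22 and -0.19 and most members lie below it, as do Ccr2 and Ptprc among the long genes.

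The tamoxifen change itself differed between the sexes, by the interaction term, in 20 of the 38 genes, beside 52.3% of all tested genes (27.0% positive and 25.4% negative). The count of members was thus near the share of all genes. It was negative, meaning a change that was lower in females than in males, in 3 genes of resident macrophages and their growth factor receptor: Cd163 (-0.50 ± 0.13, adjusted p = 7.327e-04), Adgre1 (-0.35 ± 0.13, adjusted p = 0.02189) and Csf1r (-0.28 ± 0.10, adjusted p = 0.0151). It was positive in 17 genes, among them S100a8 (2.09 ± 0.46, adjusted p = 1.227e-04), S100a9 (2.09 ± 0.43, adjusted p = 4.814e-05), Igkc (1.38 ± 0.36, adjusted p = 0.001077), Cd52 (0.71 ± 0.19, adjusted p = 0.001399), Aif1 (0.67 ± 0.17, adjusted p = 5.248e-04) and Tyrobp (0.63 ± 0.11, adjusted p = 3.21e-06). Without ct 38 the S100a8 and S100a9 terms were 1.32 (adjusted p = 0.001857) and 1.26 (adjusted p = 0.001764), and without the library against its sex label the Igkc term was 0.96 (adjusted p = 0.006014). For Lyve1, F13a1, Timd4 and Folr2, which fell in both sexes, the terms lay between -0.15 and -0.04 and none passed. Without the 10 TEC-rich libraries 11 genes passed, beside 28.1% of all tested genes, with Cd163 at -0.42 (adjusted p = 0.02199), Csf1r at -0.21 (adjusted p = 0.1571) and Adgre1 at -0.17 (adjusted p = 0.3608). Without the Myl7-rich libraries Csf1r was at -0.21 (adjusted p = 0.08518), Adgre1 at -0.25 (adjusted p = 0.1291), Ighm at 0.28 (adjusted p = 0.08518), Cd79a at 0.49 (adjusted p = 0.1214) and Ms4a1 at 0.58 (adjusted p = 0.1471). Within the first and the second 24 h 8 and 10 passed, beside 40.03% and 31.7% of all tested genes. Calls for Fcer1g, Tyrobp, S100a8 and S100a9 held in all 26 alternatives.

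Over the day, the fractalkine receptor Cx3cr1 (chr9:119901616-120069879) was rhythmic in all 4 groups. Rhythms were tested by a cosine of 24 h, whose amplitude is the distance from mean to peak in log2 units. Means at single times ran from 2.86 CPM at ct 38 to 9.68 at ct 50 in vehicle females, from 2.05 at ct 38 to 10.9 at ct 50 in tamoxifen females, from 3.53 at ct 62 to 13.6 at ct 30 in vehicle males and from 1.91 at ct 38 to 7.38 at ct 30 in tamoxifen males. Low points stood in the early subjective night and high points in the first part of the subjective day in each group. The amplitude was 0.83 ± 0.13 with a peak at ct 3.48 in vehicle females (adjusted p = 4.309e-06), 0.86 ± 0.13 at ct 3.52 in tamoxifen females (adjusted p = 5.818e-06), 0.50 ± 0.13 at ct 5.18 in vehicle males (adjusted p = 0.002347) and 0.80 ± 0.13 at ct 3.19 in tamoxifen males (adjusted p = 1.409e-04). In vehicle males without the TEC-rich libraries the amplitude was 0.34 (adjusted p = 0.2802). Both libraries at ct 30 and ct 34 were among those left out.

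Lyve1 peaked in the opposite part of the day. In vehicle females its mean ran from 17.1 CPM at ct 26 to 46.6 at ct 62, with an amplitude of 0.64 ± 0.08 and a peak at ct 15.6 (adjusted p = 1.945e-08). Amplitudes were 0.42 ± 0.09 in tamoxifen females (adjusted p = 6.45e-04, peak at ct 15.9) and 0.39 ± 0.09 in vehicle males (adjusted p = 3.129e-04, peak at ct 16.7). In all, 7 of 38 members were rhythmic in vehicle females, where 34.5% of tested genes were, 8 in tamoxifen females (17.1%), 15 in vehicle males (55.2%) and 1, Cx3cr1, in tamoxifen males (8.03%). At an unadjusted p under 0.05 the numbers were 11, 16, 16 and 4 in that order. The shares of all tested genes at that threshold are not given here, so these counts have no background. Cbr2 (0.39 ± 0.08, peak at ct 14.6), Fcgr3 (0.31 ± 0.07, peak at ct 17.7) and Cd163 (0.26 ± 0.09, peak at ct 16.7) peaked in the night phase in vehicle females, and Mpeg1 and Ighm peaked at ct 3.41 and ct 3.39. The Cd163 rhythm in vehicle females (adjusted p = 0.04758) was called in 3 of 12 fits that left out 1 time and in neither 24 h alone. In tamoxifen females Igkc had an amplitude of 1.003 ± 0.23, which was 0.20 (adjusted p = 0.857) without the library against its sex label.

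**Figure D4:**
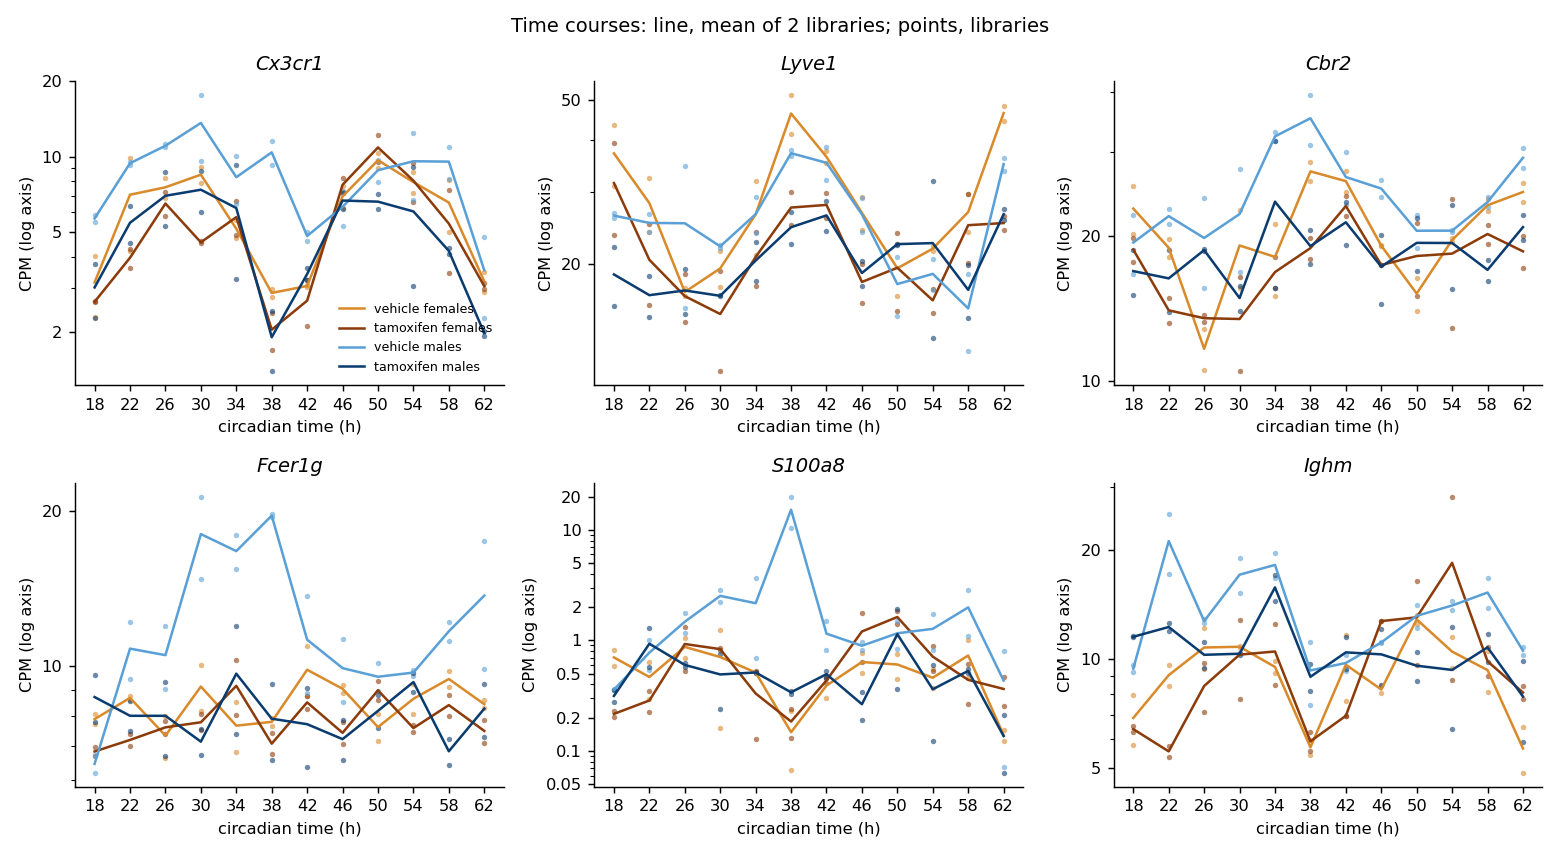
Level (y axis, CPM on a log axis) against circadian time in hours (x axis) for 6 genes in the 4 groups; lines join the means of 2 libraries and points are libraries. Cx3cr1 is low near ct 38 and ct 62 in vehicle females, Lyve1 is high at those times, and S100a8 stands at 15.2 CPM at ct 38 in vehicle males.

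In vehicle males 5 members were called rhythmic without the TEC-rich libraries, beside 18.2% of all tested genes. Within the first and the second 24 h alone 9 and 3 were called, beside 58.1% and 24.9%, so each member count was below the share of all genes. S100a8, with an amplitude of 1.29 ± 0.25 and a peak at ct 12 (adjusted p = 5.329e-05), had a mean of 15.2 CPM at ct 38 and of 0.434 at ct 62, the same phase a day later. In the first 24 h its amplitude was 1.79 (adjusted p = 8.569e-05) and in the second 0.43 (adjusted p = 0.4788), so the daily pattern was not repeated. Fcer1g in vehicle males had means of 18.03 CPM at ct 30, 16.7 at ct 34 and 19.6 at ct 38, and of 9.71, 11.7 and 13.7 at the same phases a day later, ct 54, ct 58 and ct 62. TEC-rich were 2 of 2 libraries at ct 30 and at ct 34 and 1 of 2 at ct 38. At ct 54, ct 58 and ct 62 it was 1 of 2 each. The test of the rhythm itself between tamoxifen and vehicle found 0 of 38 members in females (0.237% of tested genes; 1, Fcgr3, at an unadjusted p under 0.05) and 4 in males (20.7%): S100a8, S100a9, Itgam and Fcer1g. Leaving out ct 38 removed all 4 calls in males, and S100a8 and S100a9 were then at 0.87 and 0.66, against 1.87 and 1.86 with it.

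Among the other pairs, Fcer1g and Tyrobp, both signalling adaptors of myeloid receptors, had r of 0.57, 0.86, 0.45 and 0.66 in females then males on vehicle and females then males on tamoxifen (rho 0.54, 0.80, 0.40 and 0.60; adjusted permutation p for r of 0.005351, 3.5e-05, 0.03501 and 8.867e-04). Without the 2 libraries farthest from the median these were 0.50, 0.84, 0.37 and 0.51. Cd163 and F13a1 had r of 0.60, 0.56, 0.61 and 0.59, and in tamoxifen females 0.28 without the 2 farthest libraries, on which that relation rests. Cd163 and S100a8 had r of -0.46, 0.04, -0.27 and -0.20, with an adjusted permutation p of 0.03164 in vehicle females and between 0.2103 and 0.8409 in the others. In vehicle females their rho was -0.41 (adjusted permutation p = 0.06409). Cd79a and Cd79b had r of 0.65, 0.34, 0.67 and 0.32 (adjusted permutation p of 0.001077, 0.1159, 8.867e-04 and 0.1374). Igkc and Ighm had r of 0.44, 0.53, 0.75 and 0.59, and 0.41, 0.28, 0.46 and 0.45 without the 2 farthest libraries. Genes of 1 library share its depth and its cell makeup.

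Further lists, of leukocyte genes and of signals that act on leukocytes, were counted. They were chosen with earlier results of these data known, and whole-tissue levels do not show which cells made the RNA. Of all tested genes, 12.3% were lower and 15.2% higher with tamoxifen in females, and 37.8% lower and 32.2% higher in males. Of 40 further macrophage genes 19 were lower and 0 higher in tamoxifen females, and 30 lower and 2 higher in tamoxifen males. Among genes with a mean of at least 1 CPM, the largest changes were those of Retnla, a secreted protein of alternatively activated macrophages (-1.20 ± 0.23 in females, -0.85 ± 0.22 in males), Vsig4, a complement receptor (-0.79 ± 0.20 in females), and the lectin Cd209f (-1.28 ± 0.19 in males). Of 17 genes of CSF1 signalling and macrophage transcription factors 5 were lower in females, with the growth factor Csf1 at -0.31 ± 0.07, and 11 in males, with the lipid receptor Trem2 at -0.72 ± 0.11 and the transcription factor Maf at -0.60 ± 0.07. Of 15 tested chemokines 2 were higher and 3 lower in females (Ccl12 0.60 ± 0.20, Ccl6 -0.46 ± 0.09) and 11 lower in males, led by the monocyte attractants Ccl7 (-1.38 ± 0.20) and Ccl2 (-1.26 ± 0.20). In the interaction 8 of these 15 were positive and 0 negative, beside 27.0% and 25.4% of all tested genes.

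Of 9 tested genes of the class II machinery 3 were higher in females, among them the class II promoter factors Rfxank (0.23 ± 0.04) and Rfx5 (0.17 ± 0.07), and 1 was lower in males, H2-Ob (-0.71 ± 0.14). Further neutrophil genes, 6 tested, gave 0 calls in females (edgeR and DESeq2, and 0 at an unadjusted p under 0.05) and 3 lower in males, with the G-CSF receptor Csf3r at -0.82 ± 0.13 and the cytokine Il1b at -0.64 ± 0.23. Further B and plasma cell genes, 9 tested, gave 1 lower in females (Bank1, -0.35 ± 0.09) and 6 lower in males. Of 6 tested dendritic cell genes 1 was higher in females and 4 lower in males, among them the transcription factor Zbtb46 (-0.37 ± 0.07). Zbtb46 had a mean of 37 CPM in vehicle males, where the whole dendritic list had a median sum of 38.89. Which cells made its RNA was not tested. Of 5 tested mast cell and eosinophil genes 1 was lower in females (Mcpt4, -0.56 ± 0.19) and 1 in males (Kit, -0.37 ± 0.13). Of the T and NK cell list 3 of 15 genes were tested, and 1, Cd4, was higher in males at 0.37 ± 0.14. Beside these lists, 12.3% of all tested genes were lower and 15.2% higher in females, and 37.8% lower and 32.2% higher in males.

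Markers of other cells were counted in the same way. Of all tested genes, 37.8% were lower and 32.2% higher with tamoxifen in males, and 12.3% lower and 15.2% higher in females. Between vehicle hearts of the sexes, 36.5% were lower and 31.8% higher in females. All 10 endothelial markers were lower in tamoxifen males and all 10 lower in vehicle females than in vehicle males. Their sum ranged from 1438 to 2416 CPM in vehicle females, 1360 to 1763 in tamoxifen females, 1617 to 3284 in vehicle males and 1449 to 1961 in tamoxifen males. Blood markers (erythrocytes and platelets, 9 of 10 tested, with Gp1bb at 0 in all libraries) were all 9 lower in vehicle females than in vehicle males, with 5 lower in tamoxifen males and 0 called in tamoxifen females (edgeR and DESeq2, with 5 at an unadjusted p under 0.05). Their sum had medians of 554.7 CPM (319 to 1208) in vehicle females, 682.4 (335.9 to 2910) in tamoxifen females, 963 (440.7 to 1963) in vehicle males and 606.9 (377.4 to 2231) in tamoxifen males. Fibroblast markers went the other way in females, with 6 of 8 higher and 0 lower, and in males 1 of 8 was lower. Their sum ranged from 1958 to 3169 CPM in vehicle females and 2000 to 3450 in tamoxifen females. Of 10 cardiomyocyte markers 2 were higher and 1 lower in females, with 5 higher and 4 lower in males, and of 8 mural cell markers 2 were lower in females, with 3 lower and 1 higher in males. The part of blood, vessels and other cells in the leukocyte results was not tested.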

How the data were processed

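Poly-A selected RNA from mouse ventricles was sequenced on an Illumina NovaSeq, per the labels' protocols. The authors deposited whole-number counts per gene for 96 libraries, and the submitters' processing notes name HISAT2, Picard, HTSeq and the builds GRCm38 and mm10; no version, strand or counting setting is given there. Rows with date-form names (26, 0.1345% of counts) stayed out. Libraries were grouped by title. Genes passing filterByExpr (minimum count 10) were fitted in edgeR 4.0.16 (R 4.3.3) with TMM scaling and a quasi-likelihood model of a level plus a daily cosine and sine for each group (84 residual degrees of freedom). Tests were adjusted by Benjamini-Hochberg over all 15629 tested genes, with calls under 0.05. The same code was tested on simulated data. DESeq2 1.42.0, other scalings, no filter, left-out times and left-out libraries were alternatives. Correlations used log2(CPM + 0.5) and 100000 permutations, two-sided. Gene models came from GENCODE M21.

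The members and lists were chosen with earlier results of these data known. Values by group were given for members called in a tamoxifen comparison or the interaction and for the highest of each role per kilobase; from each list, the 2 called genes of largest change among those with a mean of at least 1 CPM could be named. The 48 same-time pairs of a group differed beyond sampling noise (chi-square per gene 3.86 to 99.6).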

Additional observations from a re-analysis of the deposited data

Results flagged for a closer look

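The interaction of tamoxifen and sex, which tests whether the tamoxifen change differs between females and males, passed an adjusted p of 0.05 in edgeR for 20 of 38 members, beside 52.3% of all tested genes. The count of members was near that share. By sex, 31 members differed in vehicle hearts and 1 in tamoxifen hearts, and the interaction uses the same 24 vehicle male libraries. Values of the 20 members follow as the change in females minus the change in males on the log2 scale. The change was lower in females for Cd163 (-0.50), Adgre1 (-0.35) and Csf1r (-0.28). Among receptors and adaptors it was higher in females for Cx3cr1 (0.61), Ccr2 (0.56), Fcgr3 (0.24), Fcer1g (0.47) and Tyrobp (0.63). Pan-leukocyte and phagocyte genes gave 0.41 for Ptprc, 0.71 for Cd52, 0.32 for Cd53, 0.32 for Itgam, 0.67 for Aif1 and 0.24 for Lyz2. The alarmins S100a8 and S100a9 each gave 2.09, and B cell genes 0.41 for Ighm, 1.38 for Igkc, 0.60 for Cd79a and 0.73 for Ms4a1. Without the 10 TEC-rich libraries of vehicle males, 11 members passed, beside 28.1% of all tested genes. Of 26 alternatives, the call was lost in 17 for Fcgr3 (DESeq2 among them), 15 for Cd79a, 11 each for Itgam and Ms4a1 and 9 each for Adgre1 and Ighm, and in 0 for Fcer1g, Tyrobp, S100a8 and S100a9.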

How the results depend on the processing

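Of the alternatives, 1 turned the sign of a called value: Laptm5, lower in vehicle females than in males, was at 0.0312 in the second cycle alone. Counts of called members moved as follows. The number called among all tested genes stands in brackets after each, out of 15629 unless given, except for the single cycles. With tamoxifen title numbers over 570 alone, 4 were called for tamoxifen in females (2602), 0 rhythmic in tamoxifen females (57) and 0 with a changed rhythm in males (311). With numbers under 570 alone, 3 differed by sex in tamoxifen hearts (638) and 10 had an interaction (5667). In the same fit 5 were rhythmic in tamoxifen females (1675), 0 in tamoxifen males (221) and 0 changed rhythm in males (59). In the first cycle alone the counts were 2 by sex in tamoxifen hearts, 8 for the interaction, and 3, 9, 1 and 2 rhythmic in females then males on vehicle and females then males on tamoxifen. In the second they were 17 by sex in vehicle hearts, 2 by sex in tamoxifen hearts and 10 for the interaction. In that cycle 3 were rhythmic in vehicle males and 0 had a changed rhythm in males. For the cycles, shares of all tested genes are given above only for the interaction and for rhythm in vehicle males. The other counts of the cycles have no background here and do not show a move particular to the members. Without the libraries high in TEC counts the numbers of members were 2 by sex in tamoxifen hearts (1909) and 11 for the interaction (4399). In that fit 5 were rhythmic in vehicle males (2850) and 2 had a changed rhythm in males (398). A level for each time (1483) and the exon length correction (1413 of 15495), the latter chosen after seeing the data, each gave 2 by sex in tamoxifen hearts. No filter gave 5 rhythmic in tamoxifen females (2261 of 36090). Leaving out 1 time gave 10 to 14 members for tamoxifen in females (3624 to 4144) and 27 to 30 in males (10293 to 11051). By sex it gave 29 to 31 in vehicle hearts (9982 to 10704) and 1 to 2 in tamoxifen hearts (809 to 1272). The interaction had 14 to 22 (7273 to 8266). Rhythmic were 6 to 10 in vehicle females (3785 to 5690) and 13 to 15 in vehicle males (7150 to 9125). With tamoxifen they were 5 to 11 in females (1991 to 2826) and 1 to 2 in males (811 to 1454). A changed rhythm in males had 0 to 5 (1218 to 4336). The changed rhythm in females kept a count of 0 in every alternative run (3 to 665). The cause of these moves was not tested. With scaling by library size alone the median of all genes for tamoxifen in males was -0.14. No paired analysis was possible because every library has its own title number. Counts under 10 per library, as for S100a8 and Ms4a1, limit what can be seen.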
